A study of Mus musculus with 20 samples.

Results

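The Notch pathway genes described here are 10 of the 54446 genes in the deposited table of mouse tibia RNA-seq counts. They were chosen by name: the 4 receptors Notch1, Notch2, Notch3 and Notch4, the 3 ligands Jag1, Dll1 and Dll4, and the 3 target genes Hes1, Hey1 and Heyl. Each name matched 1 gene, and all 10 passed the filter on low counts in each of the comparisons. The mice were male C57BL/6J animals, 3 months old, which received the synthetic glucocorticoid dexamethasone (DEX) at 1 mg/kg under the skin or water as the vehicle for 5 days. In every animal the left tibia was compressed along its axis at -13 N, with 40 cycles of 0.1 s in a session and 10 s of rest between cycles, and the right tibia was left unloaded. The sample labels give sessions on days 1 and 3, while the paper describes 3 sessions. This gave 4 groups of 5 libraries: unloaded vehicle, loaded vehicle, unloaded DEX and loaded DEX. Unloaded DEX replicate 4 was not used in the comparisons, because the study excluded a library named DEX-4 and shows 4 unloaded and 5 loaded DEX values, although it does not name the limb, so 19 libraries remain.

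Notch receptors sit in the cell membrane and are switched on by Jagged and Delta-like ligands on a neighbouring cell. Cleavage by ADAM proteases and then by gamma-secretase frees the intracellular part of the receptor, which enters the nucleus, binds the DNA-binding protein RBPJ and turns on the Hes and Hey genes, themselves transcriptional repressors. In bone the pathway is known for its part in osteoblast and osteocyte differentiation and in the growth of bone vessels. The study examined Hes1 as a transcription factor of Piezo1, a force-gated ion channel, and the comparison asked here is whether Hes1 moved with the rest of the pathway.

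Over all 4 comparisons and the interaction, 2 changes among the 10 genes passed the test, each at an adjusted p under 0.05. They were those of Hes1 with DEX in unloaded and Dll1 with DEX in loaded tibiae. The Hes1 call was lost when any of 7 of its 9 libraries was omitted, and the Dll1 call when any of 6 of its 10 was. In unloaded tibiae Hes1 was 1.81-fold lower with DEX (edgeR adjusted p = 0.0494), where 6.84% of all genes were called. In loaded tibiae Dll1 was 1.51-fold higher with DEX (edgeR adjusted p = 0.0316), where 21.3% of all genes were called, and Hes1 did not pass (log2 fold change -0.12, adjusted p = 0.723). The share of all genes called there depended on gene level, as given below. No loading response of the 10 genes passed the test in either treatment, nor did that of any other gene by edgeR. The mean ratio of Hes1 to each of the 9 other genes was lower with DEX in unloaded tibiae, but none of these differences passed after adjustment.

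The libraries held 4641437 to 13032018 counts, of which between 10.6% and 13.97% of a library's entries carried decimals and were rounded. Loaded DEX replicate 4 had the lowest total and the most genes with a count (39972 against 28979 to 38040 in the others). It also had the most reads on olfactory and vomeronasal receptor genes, which bone is not known to use: 8885 CPM (counts scaled to library size), against 232 to 3583 CPM in the other 18 libraries of the comparisons. RNA came from frozen, pulverised tibiae, and markers of bone, marrow, vessel and muscle cells were all detected. Summed over 9 osteoblast markers, the median level was 89884 CPM in unloaded vehicle, 84972 CPM in loaded vehicle, 25094 CPM in unloaded DEX and 13428 CPM in loaded DEX libraries. All marker genes of the bone, vessel, muscle and blood cell lists had counts in every group. With DEX, 7 of 9 osteoblast, 6 of 9 osteocyte, 9 of 10 chondrocyte and 8 of 8 B cell markers were called lower, and 8 of 9 neutrophil markers and 1 of 9 osteocyte markers (Fgf23) higher, in loaded tibiae. In unloaded tibiae 5 of 9 osteoblast, 4 of 8 osteocyte, 0 of 9 chondrocyte and 4 of 8 B cell markers were called lower and 7 of 9 neutrophil markers higher. None of the 7 T cell and 7 erythroid markers was called by edgeR in either, and the part of these cell types in the results was not tested. In such bulk samples, fewer cells of a type and less RNA per cell cannot be told apart.

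Per kilobase of exon, Notch2 had the highest level of the 10 genes in all 4 groups. In unloaded vehicle tibiae it stood at 28.7 ± 5.19 CPM per kb (SD, n = 5), followed by Notch3 at 11.01 ± 3.30, Notch1 at 7.43 ± 2.65, Jag1 at 5.94 ± 1.74 and Hes1 at 5.19 ± 1.21 CPM per kb. Hey1 (3.38 ± 1.00), Dll4 (3.11 ± 0.773), Heyl (3.05 ± 1.06), Notch4 (2.34 ± 0.604) and Dll1 (1.71 ± 0.440 CPM per kb) came lower. Below Notch2, the means of neighbours in this order differed by less than the sum of their SDs. Hes1 held the fifth place in all 4 groups. The counts behind these levels were high for Notch2, at 1062 to 4451 per library, and low for Hes1, at 37 to 125, and Dll1, at 41 to 91, so that counting error weighs more on these last genes.

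**Figure D1:**
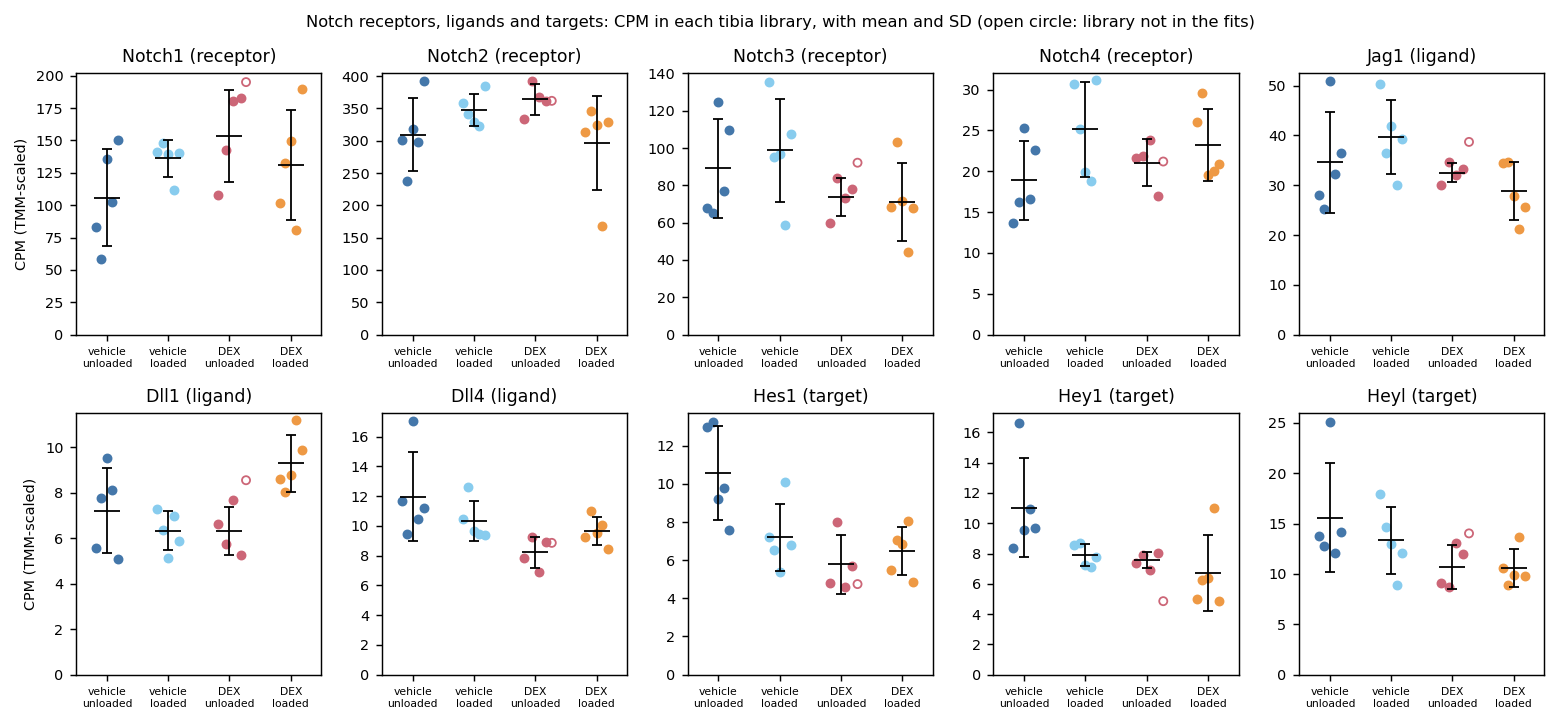
CPM of the 10 genes (vertical axes, each starting at 0) in the tibia libraries of the 4 groups (horizontal axes), with a point for each library and bars for the mean and SD. The open circle is unloaded DEX replicate 4, which was not in the comparisons. Hes1 is highest in unloaded vehicle tibiae (10.6 ± 2.47 CPM), and Dll1 in loaded DEX tibiae (9.29 ± 1.25 CPM).

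Notch1 (chromosome 2, 26457903 to 26516663, GRCm38) is the receptor most often tied to Hes1. It had 82.7, 58.1, 135.8, 102 and 149.99 CPM in the unloaded vehicle libraries 1, 2, 4, 5 and unnumbered, and 141, 148, 139.5, 112 and 140.05 CPM in the loaded ones. The unloaded DEX libraries 1, 2, 3 and 5 had 108, 143, 180.5 and 183 CPM, and the loaded DEX libraries 1 to 5 had 102, 133, 149.7, 80.8 and 189 CPM. All 4 groups overlapped, and the lowest value was in an unloaded vehicle library. Notch2 (chromosome 3, 98013527 to 98150361) ranged from 237 to 393 CPM except in loaded DEX replicate 4, which had 167 CPM. Notch3 (chromosome 17, 32120820 to 32166852), known for its role in the muscle cells of vessels, ranged from 44.4 to 135.6 CPM, and Notch4 (chromosome 17, 34564268 to 34588503), an endothelial receptor, from 13.7 to 31.1 CPM. Exons of Notch1, Notch2, Notch3, Dll1 and Dll4 share bases with other annotated genes, on the same strand for Notch2 and on the opposite strand for the other four. The library kit keeps strand, but how strand was set in counting is not given in the sources used here, so reads on those bases may belong to either gene.

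In unloaded tibiae, DEX gave no called change of a receptor. The log2 fold change of Notch1 was 0.57 (SE 0.258, 153 ± 35.6 CPM, n = 4, against 106 ± 37.7 CPM, n = 5), with an unadjusted p of 0.0484 and an edgeR adjusted p of 0.200. With the background receptor reads as a covariate it became 1.13 (edgeR adjusted p = 0.00660). Notch2 had a log2 fold change of 0.25 and Notch4 of 0.17, while that of Notch3 was -0.25 (edgeR adjusted p = 0.328, 0.596 and 0.464). In loaded tibiae all 4 receptors had log2 fold changes below 0 and none was called, from -0.01 for Notch1 to -0.43 for Notch3 (edgeR adjusted p = 0.971 and 0.173). Without loaded DEX replicate 2, Notch3 was called (-0.63, edgeR adjusted p = 0.0483). With the background covariate, all 4 of these were positive and none was called, at 0.54 for Notch1, 0.33 for Notch2, 0.35 for Notch3 and 0.42 for Notch4. The median over the receptors was 0.21 in unloaded and -0.13 in loaded tibiae, against 0.03 and 0.0040 over all genes tested. The median over all genes depended on level, split into low, middle and high groups of nearly equal size. It was 0.896, -0.038 and -0.204 in loaded tibiae, and 0.357, -0.039 and -0.071 in unloaded tibiae. Notch4 was in the middle and the other receptors in the high group. In loaded tibiae the receptor median thus lay between the medians of the middle and high groups.

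Each ligand had the letters CACGCG, a site that Hes and Hey repressors are known to bind, in a promoter window, and so did the receptor Notch2. The windows run from 250 bases before the transcription start to 50 bases from it on, and were taken from RefSeq on GRCm38.p6, where 7 of the 10 genes matched with 8 windows. The other genes are the targets Hes1, Hey1 and Heyl, which were not searched. They are shown for the ligands because Dll1 carried the call in loaded tibiae. Capitals mark matches on either strand to TGGGAA or GTGGGAA (the RBPJ site), CACGTG or CACGCG (sites of Hes and Hey proteins) or CACNAG (the N-box). Any of these may overlap, as GTGGGAA holds TGGGAA.
Jag1, chr2:137116471-137116770, minus strand: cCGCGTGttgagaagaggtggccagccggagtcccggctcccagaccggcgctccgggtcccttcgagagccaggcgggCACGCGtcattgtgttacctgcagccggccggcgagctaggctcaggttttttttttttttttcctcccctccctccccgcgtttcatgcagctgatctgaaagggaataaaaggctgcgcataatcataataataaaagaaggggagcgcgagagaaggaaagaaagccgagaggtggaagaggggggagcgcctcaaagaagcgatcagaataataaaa
Dll1, chr17:15375774-15376073, minus strand: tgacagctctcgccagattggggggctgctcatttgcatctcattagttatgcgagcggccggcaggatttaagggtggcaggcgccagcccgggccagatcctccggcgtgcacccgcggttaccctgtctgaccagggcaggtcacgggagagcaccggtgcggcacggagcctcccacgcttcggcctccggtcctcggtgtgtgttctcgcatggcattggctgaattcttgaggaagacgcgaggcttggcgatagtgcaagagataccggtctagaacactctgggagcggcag
Dll1, chr17:15376883-15377182, minus strand: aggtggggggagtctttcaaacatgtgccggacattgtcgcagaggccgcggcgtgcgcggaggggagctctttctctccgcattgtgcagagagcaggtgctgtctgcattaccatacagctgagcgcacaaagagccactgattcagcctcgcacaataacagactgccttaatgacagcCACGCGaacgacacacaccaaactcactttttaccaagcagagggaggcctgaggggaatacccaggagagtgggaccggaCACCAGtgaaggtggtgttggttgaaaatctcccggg
Dll4, chr2:119325534-119325833, plus strand: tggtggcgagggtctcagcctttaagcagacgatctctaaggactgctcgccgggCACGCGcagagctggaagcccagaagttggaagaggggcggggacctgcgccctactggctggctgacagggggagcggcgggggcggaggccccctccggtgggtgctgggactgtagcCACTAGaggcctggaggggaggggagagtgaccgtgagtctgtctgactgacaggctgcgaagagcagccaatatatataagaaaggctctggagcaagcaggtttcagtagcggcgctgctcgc

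CACGCG was in the windows of Jag1, Dll4, Notch2 and 1 of the 2 of Dll1, where it lay 68 bases before the start. Over all 32851 mouse promoter windows of this length, 9.27% held it. CACNAG was in the windows of Notch1, Notch2, Notch3, Dll4 and Dll1, and in 42.5% of all windows. Neither TGGGAA, which 25.6% of all windows held, nor GTGGGAA (6.38%) nor CACGTG (7.15%) was in any window of these 7 receptor and ligand genes. These are matches of letters in a window and show no binding.

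Among the ligands, Dll1 (chromosome 17, 15367354 to 15376872), a Delta-like ligand needed for somite formation, rose with DEX in loaded tibiae. Its loaded DEX libraries 1 to 5 had 8.59, 8.03, 8.76, 11.2 and 9.86 CPM. The loaded vehicle libraries 1, 2, 4, 5 and unnumbered had 7.29, 6.35, 5.13, 6.98 and 5.86 CPM, and the unloaded DEX libraries 1, 2, 3 and 5 had 6.63, 5.74, 7.66 and 5.24 CPM. Every loaded DEX library was above every loaded vehicle library and above these 4 unloaded DEX libraries. Unloaded DEX replicate 4, which was left out, had 8.54 CPM and lay above loaded DEX replicate 2, so the separation from unloaded DEX depends on that choice. Against loaded vehicle, the log2 fold change was 0.59 (SE 0.176, 95% confidence interval 0.22 to 0.97, 9.29 ± 1.25 against 6.32 ± 0.868 CPM, n = 5 each), with an adjusted p of 0.0316 by edgeR and 0.0130 by DESeq2. In unloaded vehicle tibiae, Dll1 ranged from 5.06 to 9.53 CPM and overlapped all other groups.

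The reads on olfactory and vomeronasal receptor genes also separated these groups, at 1092 to 8885 CPM in loaded DEX and 232 to 913 CPM in loaded vehicle libraries. The Dll1 call was not stable. It was lost with the background receptor reads as a covariate (log2 fold change 0.40, edgeR adjusted p = 0.627), without the filter on low counts (0.38, edgeR adjusted p = 0.202), and when any of 6 of the 10 libraries was omitted. The edgeR adjusted p was 0.0553 without loaded DEX replicate 4, 0.0608 without loaded DEX replicate 5, 0.0520 without loaded vehicle replicate 1, 0.0746 without replicate 2, 0.0774 without replicate 4 and 0.0923 without the unnumbered one.

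Jag1 (chromosome 2, 137081456 to 137116644), a ligand expressed by osteoblasts and vessels, had 34.5, 34.7, 27.8, 21.3 and 25.6 CPM in the loaded DEX libraries 1 to 5. It had 50.3, 36.5, 41.9, 30.004 and 39.3 CPM in the loaded vehicle libraries 1, 2, 4, 5 and unnumbered, which overlap the former. Its log2 fold change was -0.42 (SE 0.159), which did not pass (edgeR adjusted p = 0.0744, DESeq2 adjusted p = 0.0594). It passed without loaded DEX replicate 2 (-0.53, edgeR adjusted p = 0.0373) and without loaded vehicle replicate 5 (-0.54, edgeR adjusted p = 0.0327). Jag1 also passed without the filter on low counts (-0.60, edgeR adjusted p = 0.0440), and was at -0.11 (edgeR adjusted p = 0.905) with the background covariate. Dll4 (chromosome 2, 119325784 to 119335962), a ligand of endothelial tip cells, had a log2 fold change of -0.05 in loaded tibiae, which did not pass ( 95% confidence interval -0.37 to 0.26). In unloaded tibiae it had 7.84, 9.24, 6.92 and 8.90 CPM in DEX libraries 1, 2, 3 and 5, all below the vehicle values of 11.7, 9.44, 17.1, 10.4 and 11.2 CPM. The log2 fold change was -0.52 (SE 0.192, edgeR adjusted p = 0.121).

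Among the targets, Hes1 fell with DEX in unloaded tibiae, while Hey1 and Heyl had negative log2 fold changes that did not pass. Hes1 (ENSMUSG00000022528.8, chromosome 16, 30064384 to 30067796), the repressor read most often as the output of the pathway, had 12.99, 13.3, 9.22, 9.79 and 7.59 CPM in the unloaded vehicle libraries 1, 2, 4, 5 and unnumbered. It had 4.83, 7.998, 4.57 and 5.71 CPM in the unloaded DEX libraries 1, 2, 3 and 5. Only DEX replicate 2 and the unnumbered vehicle library overlapped. The log2 fold change was -0.85 (SE 0.234, 95% confidence interval -1.36 to -0.34, 5.78 ± 1.56 CPM, n = 4, against 10.6 ± 2.47 CPM, n = 5), with an adjusted p of 0.0494 by edgeR and 0.0113 by DESeq2.

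This Hes1 call sat at the threshold. It was lost when any of 7 of the 9 libraries was omitted: unloaded DEX replicate 1 (edgeR adjusted p = 0.09995), 3 (0.169) or 5 (0.0787), or unloaded vehicle replicate 1 (0.0864), 2 (0.0822), 4 (0.0611) or 5 (0.0789). The log2 fold change stayed between -1.05 and -0.75 over all 9 omissions. Beside the fall of Hes1, the summed level of 10 skeletal muscle markers was 2467 to 16142 CPM (median 4158) in unloaded DEX and 8217 to 35479 CPM (median 28760) in unloaded vehicle libraries. All 10 had negative log2 fold changes (-2.40 to -1.39, median -1.84) with an unadjusted p under 0.05. By edgeR 1 was called and by DESeq2 2, against 6.84% and 13.8% of all genes. The edgeR call was Myl1, a light chain of fast muscle myosin (log2 fold change -2.40, edgeR adjusted p = 0.0359). The 11 markers of pericytes and smooth muscle, cells in which Hey genes are known to act, had a median log2 fold change of -0.66, with 2 called lower. Their summed level was 618 to 1268 CPM in unloaded DEX and 871 to 2515 CPM in unloaded vehicle libraries. All 8 osteocyte markers tested had negative log2 fold changes (median -0.77) with an unadjusted p under 0.05, 4 called by edgeR and 6 by DESeq2, and their summed level was 1093 to 1781 CPM in unloaded DEX and 1931 to 2723 CPM in unloaded vehicle libraries. The osteoblast markers had a median of -1.64. The part of these cell types in the change of Hes1 was not tested.

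Hey1 (chromosome 3, 8663359 to 8667256), which is known to restrain osteoblasts, had 7.36, 7.89, 6.92 and 8.05 CPM in the unloaded DEX libraries 1, 2, 3 and 5. In unloaded vehicle libraries 1, 2, 4, 5 and unnumbered it had 8.35, 16.7, 9.53, 10.9 and 9.68 CPM, all above the DEX values. The log2 fold change was -0.53 (SE 0.217, edgeR adjusted p = 0.154). Heyl (chromosome 4, 123233556 to 123249875), a target of Notch3 in vessel walls, had a log2 fold change of -0.52 (SE 0.235, edgeR adjusted p = 0.196), and its groups overlapped.

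Over the 10 genes, 1 was called in unloaded tibiae, and it was lower with DEX. Of all 19738 genes tested, 6.84% were called, 2.86% higher and 3.99% lower, and DESeq2 called 1 of the 10 and 13.8% of all genes. At an unadjusted p under 0.05 there were 5 of the 10, against 24.6% of all genes. The groups did not overlap for 2 of the 10, Hey1 and Dll4, against 10.8% of all genes. The median log2 fold change was -0.53 over the 3 targets, -0.18 over the 3 ligands and -0.22 over all 10. It was 0.03 over all genes tested, and 0.357, -0.039 and -0.071 over those of low, middle and high level. All 10 were of middle or high level.

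In loaded tibiae no target passed the test with DEX. Hes1 had 5.50, 7.05, 6.84, 8.03 and 4.88 CPM in loaded DEX libraries 1 to 5 and 7.20, 6.54, 5.38, 10.1 and 6.81 CPM in loaded vehicle libraries, which overlap widely. Its log2 fold change had a 95% confidence interval of -0.59 to 0.36. Those of Hey1 and Heyl were -0.19 and -0.29 (edgeR adjusted p = 0.562 and 0.278). Of the 10 genes, 1 was called, and it was higher. Of all 19780 genes, 21.3% were called, 12.9% higher and 8.35% lower, and DESeq2 called 1 of the 10 and 28.6% of all genes. Over genes of middle level, where Dll1 was, edgeR called 8.22% higher and 8.37% lower. The shares were 27.8% and 0.637% over genes of low level, and 2.75% and 16% over genes of high level. At an unadjusted p under 0.05 there were 2 of the 10, against 37.2% of all genes, and the groups did not overlap for 1 of the 10 (Dll1), against 16.5%. The median log2 fold change was -0.15 over the 10 and 0.0040 over all genes tested. Over genes of low, middle and high level it was 0.896, -0.038 and -0.204, and all 10 were of middle or high level.

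**Figure D2:**
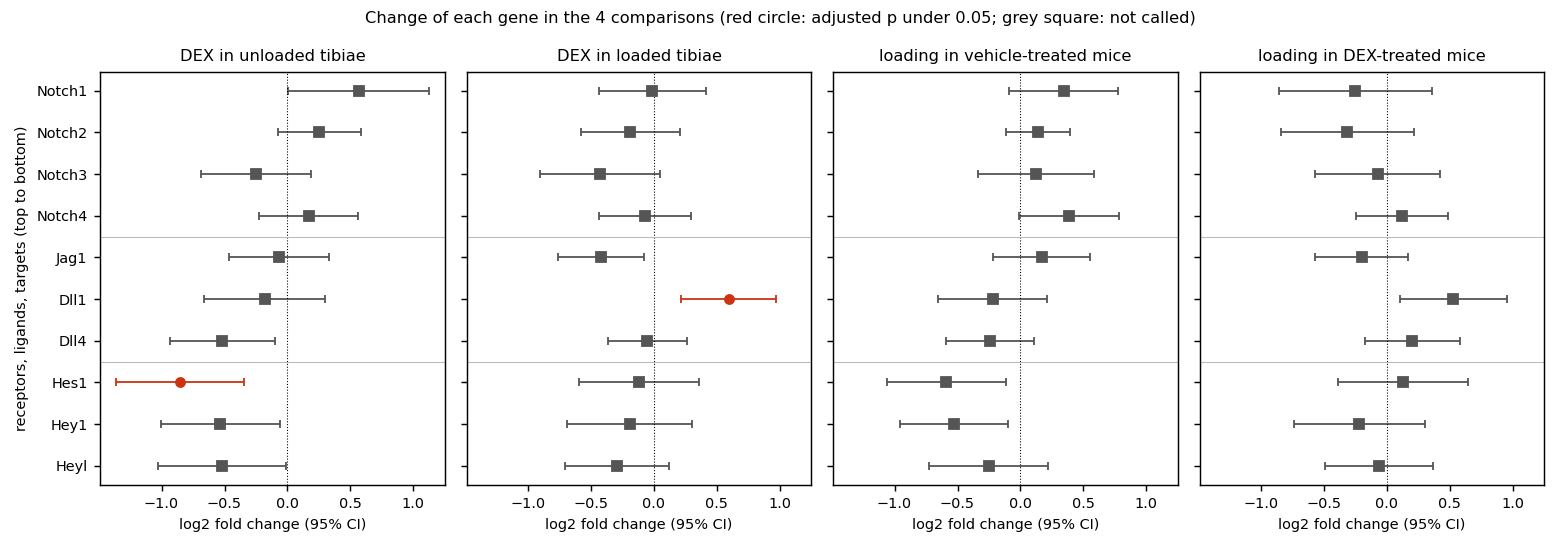
The log2 fold change of each gene (horizontal axes, with 95% confidence intervals from the edgeR fit) in the 4 comparisons, with receptors, ligands and targets from top to bottom. The red circles are the 2 calls at an adjusted p under 0.05: Hes1 at -0.85 with DEX in unloaded tibiae and Dll1 at 0.59 with DEX in loaded tibiae.

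Loading in vehicle-treated mice, a comparison that shares its unloaded vehicle libraries with that of DEX in unloaded tibiae, called none of the 10 genes. With edgeR, 0 of 17982 genes were called (0%), and 1773 (9.86%) had an unadjusted p under 0.05, while DESeq2 called 141 genes (0.784%) and none of the 10. The 2 members with an unadjusted p under 0.05 were both targets with lower values in loaded tibiae. Hes1 had 7.21 ± 1.75 against 10.6 ± 2.47 CPM (n = 5 each, log2 fold change -0.59, SE 0.218, edgeR adjusted p = 0.440). Hey1 had 7.88 ± 0.729 against 11.03 ± 3.27 CPM (log2 fold change -0.53, SE 0.197, edgeR adjusted p = 0.445). All 4 receptors had positive log2 fold changes, from 0.12 for Notch3 to 0.39 for Notch4 (unadjusted p = 0.0582, edgeR adjusted p = 0.515), but that of Notch3 was -0.10 with the background covariate. The groups overlapped for all 10 genes, and did not for 1.33% of all genes. The skeletal muscle sum was 4074 to 20881 CPM in loaded and 8217 to 35479 CPM in unloaded vehicle libraries, and 8 of 9 chondrocyte markers had positive log2 fold changes (median 1.42), 6 with an unadjusted p under 0.05, 0 called by edgeR and 5 by DESeq2. The part of either in these values was not tested.

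In DEX-treated mice, loading again called none of the 10, with 0 of 22541 genes called by edgeR (0%) and 0 by DESeq2 (0%), and 958 (4.25%) at an unadjusted p under 0.05. Dll1 was the 1 member with such a p (log2 fold change 0.53, SE 0.196, unadjusted p = 0.0190, edgeR adjusted p = 0.733). It was also the 1 member whose groups did not overlap, against 1.25% of all genes, but with unloaded DEX replicate 4 (8.54 CPM) counted they overlap. Hes1 had 6.46 ± 1.26 CPM in loaded (n = 5) and 5.78 ± 1.56 CPM in unloaded libraries (n = 4), a log2 fold change of 0.13 with a 95% confidence interval of -0.39 to 0.64. The 10 skeletal muscle markers had positive values with a median of 1.18, 4 with an unadjusted p under 0.05 and none called by edgeR or DESeq2. The other 8 lay between -0.31 for Notch2 and 0.20 for Dll4. The median over the 10 was -0.05 for loading in vehicle-treated and -0.07 in DEX-treated mice, against -0.0021 and 0.02 over all genes. Over genes of low, middle and high level it was -0.075, 0.006 and 0.024 in vehicle-treated mice. In DEX-treated mice it was 0.545, 0.040 and -0.164.

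The difference between both loading responses was tested as the interaction of DEX and loading in 19 libraries. None of the 10 passed. Of 23653 genes, edgeR called 0 (0%), with 2859 (12.1%) at an unadjusted p under 0.05, and DESeq2 called 50 (0.211%), none of them a member. Dll1 had an interaction of 0.73 on the log2 scale (SE 0.270, unadjusted p = 0.0130, edgeR adjusted p = 0.382), and Hes1 one of 0.69 (SE 0.311, unadjusted p = 0.0372, edgeR adjusted p = 0.404). The 10 skeletal muscle markers were all positive here (median 2.24), each with an unadjusted p under 0.05 and none called by edgeR or DESeq2. The 10 chondrocyte markers were all negative (median -2.25), 8 with an unadjusted p under 0.05, 0 called by edgeR and 2 by DESeq2. The part of either list in the values of Hes1 and Dll1 was not tested. The 4 receptors had negative values, from -0.60 for Notch1 to -0.21 for Notch3, although Notch3 (0.28) and Notch4 (0.02) were positive with the background covariate. The 3 targets had positive values, those of Hey1 and Heyl being 0.29 and 0.18. The effect of DEX on Hes1 in unloaded tibiae was not shown to differ from that in loaded tibiae.

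To ask whether Hes1 moved with the pathway, its level was divided by that of each other gene in the same library, which removes the scaling of libraries. With DEX in unloaded tibiae, the mean log2 ratio of Hes1 to the other gene was lower for 9 of 9 genes. These ratios share Hes1, which had the lowest log2 fold change of the 10 genes both here and with loading in vehicle-treated mice, so their common sign restates that value. Against Notch1 it went from -3.25 ± 0.873 (n = 5) to -4.68 ± 0.503 (n = 4), a difference of -1.43 (exact two-sided permutation p = 0.0317). Against Notch2 the difference was -1.10 (exact permutation p = 0.0238). The differences were nearest to 0 against Dll4 (-0.34), Heyl (-0.35) and Hey1 (-0.36), with exact permutation p from 0.175 to 0.381. None of the 36 ratios in the 4 comparisons passed after Benjamini-Hochberg adjustment, the lowest adjusted p being 0.286, while 5 had an exact permutation p under 0.05. The smallest exact p that each comparison allows is 0.00794, and over 36 ratios several would have to reach it for any to pass, so the lack of a pass says little.

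With loading in vehicle-treated mice, which uses the same unloaded vehicle libraries, the ratio was also lower for 9 of 9 genes. The difference was -0.97 against Notch1 and -0.10 against Hey1 (exact permutation p = 0.0635 and 0.563). With loading in DEX-treated mice, 7 of 9 ratios were higher, and with DEX in loaded tibiae 5 of 9 were. The change farthest from 0 with DEX in loaded tibiae was that against Dll1, at -0.68 (exact permutation p = 0.00794, the smallest possible), where the groups did not overlap. The log2 fold change there was 0.59 for Dll1 and -0.12 for Hes1, so this ratio mostly restates the Dll1 call.

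**Figure D3:**
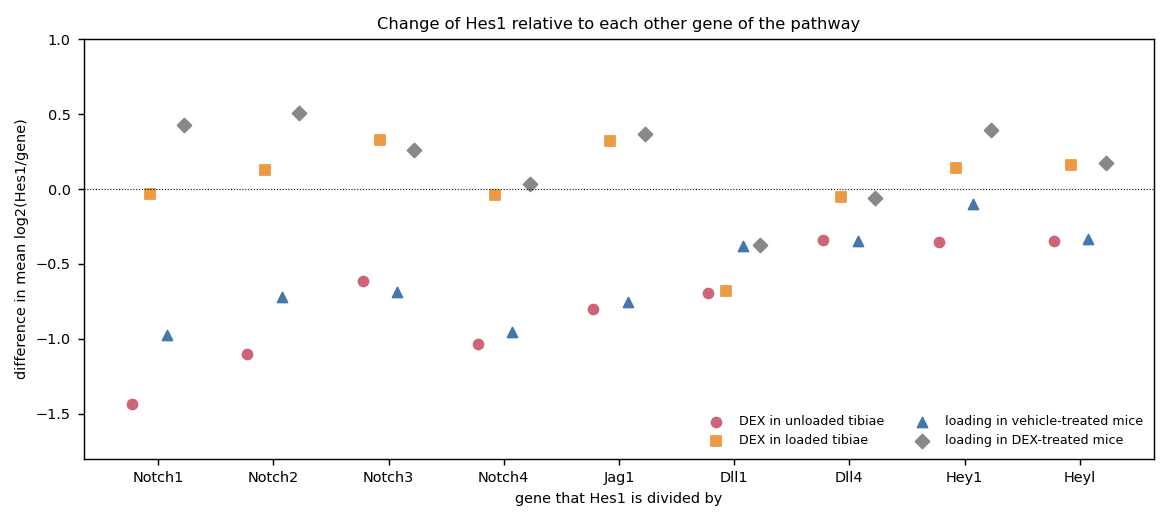
The difference between groups in the mean log2 ratio of Hes1 to each other gene (vertical axis) for the 9 other genes (horizontal axis) in the 4 comparisons (symbols). Values below 0 mean that Hes1 was lower relative to that gene in the first group. With DEX in unloaded tibiae all 9 lie below 0, from -1.43 for Notch1 to -0.34 for Dll4.

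Within the groups, Hes1 did not vary with the pathway in a way that passed the test. In 9 unloaded libraries, deviations of log2 CPM from the group mean gave Pearson's r of -0.605 between Hes1 and Notch1 (exact permutation p = 0.109, adjusted p = 0.464) and Spearman's rho of -0.567 (exact permutation p = 0.138, adjusted p = 0.744). In 10 loaded libraries, these were -0.578 (permutation p = 0.0735, adjusted p = 0.464) and -0.261 (permutation p = 0.475, adjusted p = 0.744). Without the 2 libraries farthest from the median of Hes1, Pearson's r with Notch1 was -0.503 and -0.611. Between Hes1 and Hey1, Pearson's r was 0.385 in unloaded (exact permutation p = 0.378, adjusted p = 0.504) and 0.512 in loaded libraries (permutation p = 0.111, adjusted p = 0.464), with rho of 0.483 and 0.394 (permutation p = 0.181 and 0.276, adjusted p = 0.744 for both). Without the 2 farthest libraries, r with Hey1 changed sign in unloaded libraries (-0.308) and was 0.838 in loaded ones, so that the former rested on those libraries.

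Over the 20 relations computed, 15 had a negative Pearson's r and none passed the adjustment. Hes1 and Piezo1 had r of -0.518 in unloaded (exact permutation p = 0.233, adjusted p = 0.464, rho -0.333, exact permutation p = 0.417) and -0.474 in loaded libraries (permutation p = 0.199, adjusted p = 0.464, rho -0.127, permutation p = 0.735). Without the 2 farthest libraries these were -0.597 and -0.484. In unloaded tibiae, where Hes1 was called lower with DEX, Piezo1 had 138 ± 4.61 CPM (n = 4) with DEX and 153 ± 32.9 CPM (n = 5) with vehicle, a log2 fold change of -0.13 (95% confidence interval -0.46 to 0.20, edgeR adjusted p = 0.633). In loaded tibiae, where Hes1 did not pass, that of Piezo1 was -0.56 (edgeR adjusted p = 0.0544, DESeq2 adjusted p = 0.0210). Loaded DEX replicate 4 had 72.8 CPM of Piezo1, against 129 to 155 CPM in the other loaded DEX and 138 to 226 CPM in the loaded vehicle libraries. Piezo1 was not followed over the alternative settings.

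**Figure D4:**
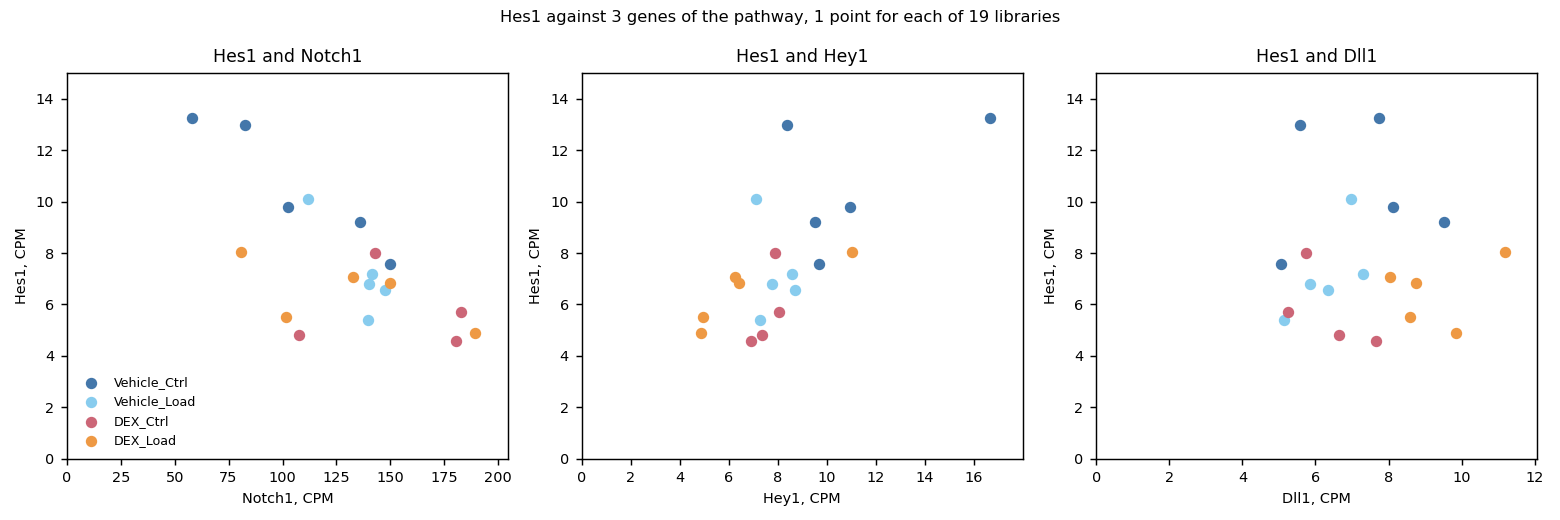
CPM of Hes1 (vertical axes) against CPM of Notch1, Hey1 and Dll1 (horizontal axes), with 1 point for each of 19 libraries coloured by group (Ctrl marks unloaded and Load loaded tibiae). The 2 libraries with the highest Hes1, unloaded vehicle replicates 1 and 2 at 12.99 and 13.3 CPM, have low Notch1 (82.7 and 58.1 CPM), and the 5 loaded DEX libraries lie apart from the loaded vehicle libraries in Dll1.

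The genes whose pattern was most like that of Hes1 over the 19 libraries, by Pearson's r of log2 CPM among 21090 genes with a mean of at least 1 CPM, were outside the pathway. They were Coq5 (r = 0.887), an enzyme of ubiquinone synthesis, Hadh (0.884), an enzyme of mitochondrial fatty acid oxidation, Klhdc2 (0.871), a subunit of a ubiquitin ligase, Zcrb1 (0.861), an RNA-binding protein of the minor spliceosome, and Ndufb5 (0.860), a subunit of respiratory complex I. Among the members, Hey1 (0.672) and Dll4 (0.512) came nearest and Notch1 (-0.687) was farthest. These values describe 19 libraries that share group differences and depth, and no test was made of them.

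The rest of the pathway was followed over 52 further genes, of which 47 to 49 were tested in a comparison. The other ligands and the corepressors had no gene called by edgeR or DESeq2 in any comparison. The nuclear complex of RBPJ with Mastermind-like proteins had none by edgeR, and 1 by DESeq2, with DEX in loaded tibiae. With DEX in loaded tibiae edgeR called 7 of 47, 2 higher and 5 lower, and DESeq2 called 9. Of all genes, edgeR called 12.9% higher and 8.35% lower there, 21.3% in all, and DESeq2 28.6%. Over genes of low, middle and high level, edgeR called 27.8%, 8.22% and 2.75% higher, and 0.637%, 8.37% and 16% lower. The 7 pathway genes that edgeR called were of middle or high level. Hey2, a target related to Hey1, had 6.69 ± 2.41 CPM with DEX and 3.42 ± 0.865 CPM with vehicle (n = 5 each, log2 fold change 1.00, SE 0.300, edgeR adjusted p = 0.0325), and Aph1c, a subunit of gamma-secretase, had a log2 fold change of 0.81 (SE 0.219, edgeR adjusted p = 0.0226). Of the 5 that fell, the 4 largest falls were those of Dtx3 (a Deltex protein, -0.62), Rfng (a Fringe enzyme that adds sugars to receptors, -0.56), Numbl (a relative of the inhibitor Numb, -0.53) and Adam17 (a protease that sheds membrane proteins, -0.43), with edgeR adjusted p from 0.0251 to 0.0424. The other was Poglut1, an enzyme that adds glucose to receptors (-0.41). These pathway calls were not followed over the alternative settings. Over all genes in this comparison, 28 were called with the background covariate, against 4206 without it. With DEX in unloaded tibiae, 0 of 47 were called by edgeR and 0 by DESeq2, with 4 at an unadjusted p under 0.05. The shares of all genes were 6.84%, 13.8% and 24.6%. For loading, 0 of 47 and 0 of 49 were called by edgeR and by DESeq2, with 0 at an unadjusted p under 0.05 in vehicle-treated and 3 in DEX-treated mice. Of all genes, edgeR called 0% in both, DESeq2 called 0.784% and 0%, and 9.86% and 4.25% had such an unadjusted p. For the interaction, 0 of 49 were called by edgeR and by DESeq2, with 3 at an unadjusted p under 0.05, against 0%, 0.211% and 12.1% of all genes. The median log2 fold change over these genes was -0.14 with DEX in loaded and -0.02 in unloaded tibiae.

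Vessel cells express several of the 10 genes. Of 14 endothelial markers, 1 was called with DEX in loaded and 1 in unloaded tibiae, against 21.3% and 6.84% of all genes, in both cases Cdh5 (log2 fold change -0.57 and -0.58, edgeR adjusted p = 0.0285 and 0.0342), the cadherin of endothelial junctions. Their summed level was 782 to 940 CPM in unloaded DEX and 692 to 1025 CPM in unloaded vehicle libraries, and 524 to 1095 CPM in loaded DEX against 839 to 1296 CPM in loaded vehicle libraries. Of 11 mural markers, 3 were called lower in loaded tibiae by edgeR. The part of these cells in the values of Dll4, Notch4 and Hey1 was not tested.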

How the data were processed

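Total RNA of mouse tibiae was sequenced after library construction with a stranded total RNA kit. The authors deposited expected counts per gene, which are estimates of reads per gene not scaled for library size. The submitters' processing notes name STAR 2.7.10a, RSEM 1.2.28 and GRCm38. The annotation and the strand setting are not given in the sources used here. Expected counts were rounded to whole numbers. Each comparison used only its groups, filterByExpr, TMM normalization and the edgeR 4.0.16 quasi-likelihood test in R 4.3.3, with Benjamini-Hochberg adjustment over all genes tested and a threshold of 0.05. DESeq2 1.42.0 (Wald test) was run beside it, with shares taken over genes given an adjusted p. CPM used TMM sizes over 22659 genes. Hes1 ratios and correlations used log2 CPM (prior count 2) and two-sided exact permutations in Python. Both tests were tested on simulated data.

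The 10 genes, the pathway and marker lists, the tests and the rule for naming genes were chosen with earlier results of these data known. Named genes were the 10 genes, up to 4 rises and 4 falls of the pathway list in each comparison, Piezo1 and the 5 genes most like Hes1. Poglut1, Myl1, Cdh5 and Fgf23 were named after their values were seen. Positions come from GENCODE release M21; of 54446 identifiers, 54409 were found there when versions were ignored and 53229 when not. One column in each vehicle group carries a number that no label has and is called unnumbered. The labels do not say which libraries share an animal, so p-values measure the spread between these libraries. Totals of 4641437 to 13032018 counts set the precision. Alternatives were another test, another scaling, other filters, the replicate block, all groups in the same model, other choices of DEX library 4, a covariate of background reads (log2 CPM over 1965 olfactory and vomeronasal receptor genes) and leaving out each library.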

Additional observations from a re-analysis of the deposited data

Results flagged for a closer look

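In 4 of 40 groups of 4 or 5 libraries, a gene's highest or lowest value lay farther from the others than Dixon's 95% critical value allows. Chance gives about 1 in 20 such groups. Loaded DEX replicate 4, which had the lowest total and the most background reads, had the highest Hey1 of its group (11.02 CPM) and the lowest Notch2 (167 CPM). Unloaded vehicle replicate 4 had the highest Heyl of its group (25.1 CPM), and loaded vehicle replicate 5 the lowest Notch1 (112 CPM).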

How the results depend on the processing

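The numbers of the libraries were not taken as pairs: deviations of same-numbered limbs had r of -0.17, -0.16, -0.28 and 0.10 in vehicle and 0.57, 0.29, 0.05 and 0.18 in DEX mice. The highest r of a loaded limb with another number was 0.45, 0.28, 0.24 and 0.24 in vehicle and -0.05, 0.26, 0.11 and 0.09 in DEX mice. Loaded DEX replicates 1, 2 and 5 thus matched their own number best, and no vehicle replicate did. The replicate block matched libraries of the same number. With DEX against vehicle these come from different animals, so the block there is no pairing of limbs. With it, 0 of the 10 genes were called with DEX in loaded and 0 in unloaded tibiae. Hes1 in unloaded tibiae was then at -0.96 (edgeR adjusted p = 0.0778). The same libraries with no block gave 0, 0 and -0.95 (edgeR adjusted p = 0.0684). Signs turned under the replicate block, and with the same libraries without it, for Notch3 with loading in DEX mice (0.0672 and 0.0745), Notch4 with DEX in loaded tibiae (0.0443 and 0.0323), and Notch3 (0.0676 and 0.0839) and Jag1 (0.20 and 0.20) with DEX in unloaded tibiae.

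All 4 groups in the same model gave 2 calls with DEX in loaded and 2 in unloaded tibiae, adding Jag1 (-0.50) and Dll4 (-0.57). With the background covariate there were 0 and 2 calls, and signs turned for Notch3 with loading in vehicle mice (-0.10), Notch1 (0.0395) and Notch3 (0.18) with loading in DEX mice, Notch1 (0.54), Notch2 (0.33), Notch3 (0.35) and Notch4 (0.42) with DEX in loaded tibiae, Notch3 (0.19) and Jag1 (0.26) with DEX in unloaded tibiae, and Notch3 (0.28) and Notch4 (0.0241) in the interaction. A minimum of 10 counts in every library turned Heyl with loading in DEX mice (0.0218) and Notch1 (0.0886), Notch4 (0.0376) and Dll4 (0.0598) with DEX in loaded tibiae. Loaded DEX replicate 4 left out and unloaded DEX replicate 4 kept gave 0 calls in loaded tibiae and Notch1 at 0.11.

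Without 1 library, calls among the 10 ranged from 0 to 3 with DEX in loaded and 0 to 1 in unloaded tibiae. Hes1 with DEX in unloaded tibiae ranged from -1.05 to -0.75. Signs turned within the ranges of Notch3 with loading in vehicle (-0.0071 to 0.28) and DEX mice (-0.24 to 0.0745), Heyl with loading in DEX mice (-0.175 to 0.043), Notch1 with DEX in loaded tibiae (-0.20 to 0.11), Jag1 with DEX in unloaded tibiae (-0.17 to 0.10) and Heyl in the interaction (-0.0597 to 0.33). Over all genes, calls with DEX in loaded tibiae (4206) ranged from 28 with the background covariate to 9016 without a filter, and in unloaded tibiae (1351) from 129 without unloaded DEX replicate 3 to 2922 with unloaded DEX replicate 4 kept. Without unloaded DEX replicate 5, edgeR called 39 genes with loading in DEX mice and 54 in the interaction, and without loaded vehicle replicate 5 it called 4 with loading in vehicle mice. Of the 10 genes' values over these alternatives, 960 kept direction and side of the threshold, 33 changed direction, 20 lost a call and 7 gained one. The low counts of Hes1 and Dll1 limit their precision, and the cause of these changes was not tested.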
